A study of Rattus norvegicus with 12 samples.

Results

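Injured rat urethra treated with a tetrahedral DNA nanostructure (TDN) was compared with injured rat urethra treated with rapamycin, gene by gene, in 6 of the 12 RNA sequencing libraries of the study. The 6 libraries were chosen by their treatment labels, with 3 TDN and 3 rapamycin libraries. All came from urethral tissue of male rats, and both groups had the same kind of mechanical injury, so they differ by label in the agent given afterwards. The other 6 libraries came from sham tissue without urethral injury and from injured tissue with no agent named in the label (3 libraries each). The labels give no strain, age, dose, route or time of harvest for any group. Whether each library is its own animal is not stated either, and a p-value here then reflects no more than library-to-library spread, part of which may be technical.

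Rapamycin is a macrolide that binds the immunophilin FKBP12 and in that complex blocks mTORC1, the kinase complex that promotes protein synthesis and cell growth and restrains autophagy. It is widely used as an immunosuppressant and has antiproliferative effects on fibroblasts and smooth muscle, the cells that make scar in the wall of the urethra. TDN is a rigid pyramid folded from short synthetic DNA strands, which many cell types take up without a transfection agent. Comparing both agents in the same injury asks where the transcriptomes left by a particle and by an mTOR inhibitor differ.

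The count table names genes by Ensembl ID only, and none of its IDs was matched to a symbol, so markers of muscle, epithelium or leukocytes, and pathways such as mTOR signalling, were not analysed here. The comparison is therefore described by groups of genes, by level and by 4 single genes given by ID. Total counts were 48494270 to 52531529 in the TDN libraries and 44765817 to 54590459 in the rapamycin libraries. Between 18965 and 19182 genes had at least 1 count in the TDN libraries. In the rapamycin libraries the number was 18799, 17475 and 19077 for replicates 1 to 3. Rapamycin replicate 2 stood apart before any gene was tested, with a TMM scaling factor of 0.66 beside 0.873 to 1.13 in the other 11 libraries. The TMM factor adjusts the total count of a library for differences between libraries in the make-up of their RNA. Depth itself enters through the total count. Several counts and shares that this library could set are given with and without it. The others are given only with it and may depend on it.

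No gene passed the test between TDN and rapamycin. Of 17521 genes tested, 0 (0%) were higher and 0 (0%) lower in TDN at a Benjamini-Hochberg adjusted p under 0.05 (edgeR quasi-likelihood test), and the smallest adjusted p was 0.161. At an unadjusted p under 0.05, 1102 genes (6.29% of those tested) were higher in TDN and 3158 (18%) were lower. The values of the TDN and rapamycin libraries did not overlap for 6753 genes (38.5%), of which 3704 (21.1%) were higher in TDN and 3049 (17.4%) lower. Genes lower in TDN were thus the larger group by the test, and genes higher in TDN by the order of the libraries. Without rapamycin replicate 2, 8449 of 17850 genes tested (47.3%) did not overlap, 4161 higher and 4288 lower, so that balance depended on this library. Fewer libraries overlap less often, so these counts are not like for like with those from all libraries. With scaling by library size alone, the genes that did not overlap (36.2% of those tested) split into 4269 higher and 2075 lower. That scaling moved the median difference of all genes from 0.0409 to 0.34 on the log2 scale. The balance thus depended on the scaling too.

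DESeq2 and limma voom with sample quality weights placed many genes past the same threshold, and limma voom without weights placed none. Of the same 17521 genes tested, DESeq2 called 163 higher and 1575 lower in TDN, and it gave no adjusted p for 1948. limma voom called 0 of the 17521, and before adjustment its p was under 0.05 for 2678 genes higher and 2012 genes lower in TDN. limma voom with sample quality weights, which lets noisy libraries count less, called 2941 higher and 3052 lower of the 17521. In that fit the weights were 1.44, 0.074 and 0.309 for rapamycin replicates 1 to 3 and 1.66 to 3.19 for the TDN libraries, so its rapamycin level rests mainly on replicate 1. Of the 1738 genes called by DESeq2, 1576 were called in the same direction by the weighted fit, which is 90.7% of the DESeq2 list and 26.3% of the weighted list. None was called in the opposite direction.

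One rapamycin library decided the count in edgeR. Without rapamycin replicate 3, of 17851 genes tested, 1893 were higher and 2895 lower in TDN at an adjusted p under 0.05. Without any other single library, of any group, edgeR called 0 genes. Without rapamycin replicate 2, the genes with p under 0.05 before adjustment numbered 487 higher and 1556 lower of 17850 tested. The smallest adjusted p in that edgeR fit was 0.304. The plot of calls by setting shows these counts side by side.

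**Figure D1:**
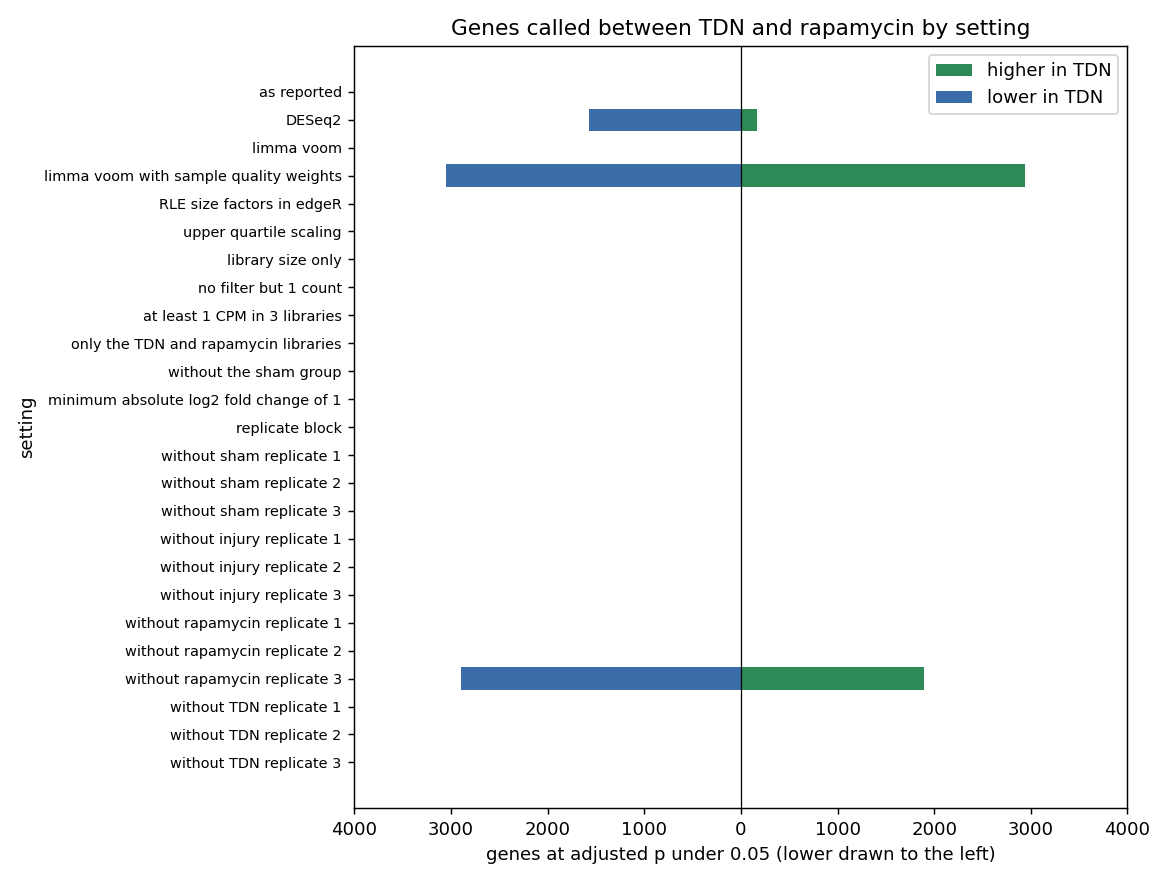
Genes at an adjusted p under 0.05 between TDN and rapamycin (horizontal axis, genes lower in TDN drawn to the left and genes higher to the right) for the test as reported and 24 alternatives (vertical axis). Bars appear for DESeq2, for voom with sample quality weights and for edgeR without rapamycin replicate 3, and all other settings gave 0.

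The TDN libraries were alike and the rapamycin libraries were not. Levels are given as CPM, the counts of a gene scaled to a common library total. Over all genes, pairs of TDN libraries differed by a root mean square of 0.666 to 0.733 in log2 CPM. Between rapamycin replicates 1 and 3 it was 1.08, between 1 and 2 it was 1.79, and between 2 and 3 it was 2.17. The median SD per gene over 3 libraries was 0.185 in TDN and 0.773 in rapamycin on the log2 scale, and the SD was larger in rapamycin for 15580 of 17521 genes (88.9%). Without rapamycin replicate 2 the median SD was 0.189 in TDN and 0.377 in rapamycin, and the SD was larger in rapamycin for 69.1% of genes. The rapamycin SD then came from replicates 1 and 3 alone. The median SD tends to be lower over fewer libraries, so these values are not like for like with those above. With all libraries the larger SD in rapamycin was found at each level, in 73% of genes under a mean of 1 CPM, 88.3% of genes from 1 to 10 CPM, 93.7% from 10 to 100 CPM and 93.2% at 100 CPM or more.

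Rapamycin replicate 3 lay close to the TDN libraries, at 0.81, 0.864 and 0.816 from TDN replicates 1 to 3. It was nearer to each of them than to either other rapamycin library. Rapamycin replicate 1 lay at 1.36 to 1.46 from the TDN libraries and replicate 2 at 2.31 to 2.35. Against the TDN mean, 10.6% of genes differed over 2-fold in rapamycin replicate 3, 33.8% in replicate 1 and 61.3% in replicate 2. The same measure for a TDN library against the mean of the other TDN libraries was 6.56 to 7.41%. Replicate 3 was the nearest of the rapamycin libraries to the TDN mean for 12769 genes (72.9%), and replicate 2 the farthest for 12295 (70.2%).

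Distances to the injured tissue followed no order by agent. Against the injury mean, rapamycin replicate 3 lay at 0.805, replicate 1 at 0.911 and replicate 2 at 1.79, and the TDN libraries lay at 0.919 to 0.984. Rapamycin replicate 1 lay at 0.906 from injury replicate 1 and 0.962 from injury replicate 2, nearer than to any TDN library. TDN libraries lay at 0.857 to 0.936 from injury replicate 3 and at 1.14 to 1.51 from injury replicates 1 and 2. The group labels accounted for 39.5% of the squared distance among the 6 TDN and rapamycin libraries (exact permutation p = 0.1, the smallest that 3 against 3 libraries allow). They accounted for 60.8% once rapamycin replicate 3 was left out and for 48.6% once replicate 2 was left out. The exact permutation p was 0.1 for both, the smallest that the 5 libraries left allow. Without a group difference the expected share is larger with fewer libraries, so these shares are not like for like with 39.5%. Without TDN replicates 1 to 3 in turn the share was 36.9, 35.3 and 36.8% (exact permutation p = 0.2 for each), so another split of the 5 libraries then separated them at least as well.

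**Figure D2:**
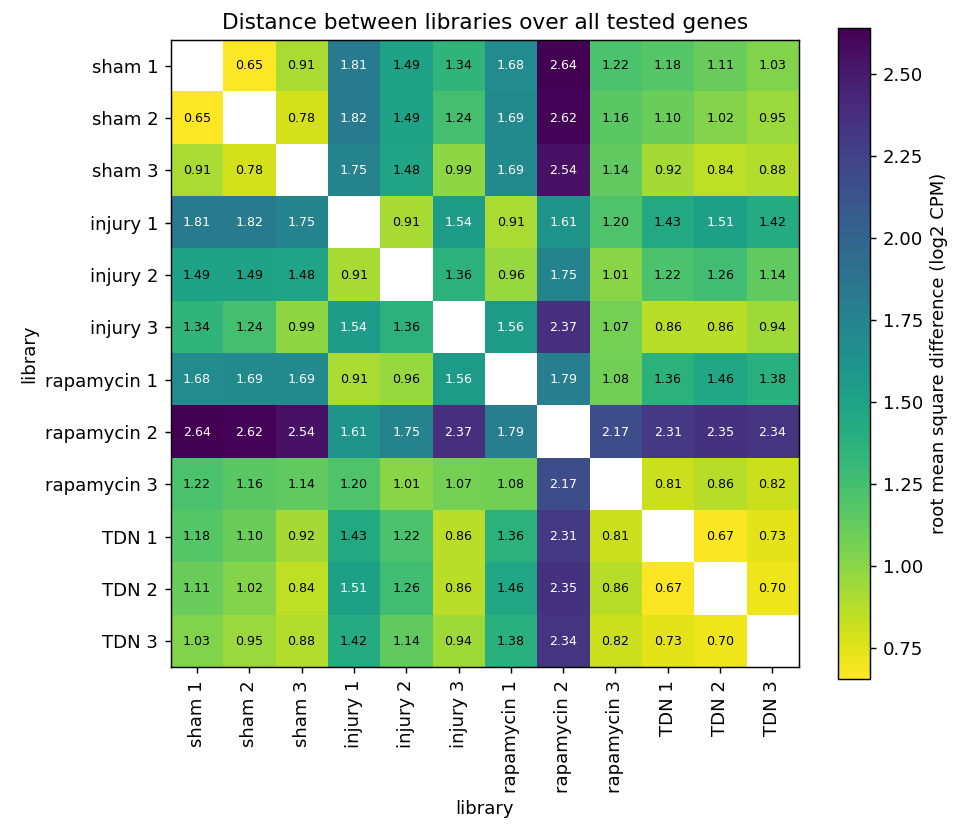
Root mean square difference in log2 CPM over 17521 genes for each pair of the 12 libraries (both axes list the libraries, colour and number give the distance). The TDN libraries form a tight block at 0.67 to 0.73, rapamycin replicate 3 sits beside them at 0.81 to 0.86, and rapamycin replicate 2 lies at 1.61 or more from every library.

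The median standard error of the log2 difference was 1.02 for genes under 1 CPM, 0.563 for 1 to 10 CPM, 0.338 for 10 to 100 CPM and 0.324 at 100 CPM or more, so it hardly narrowed above 10 CPM. The median 95% confidence interval reached 0.746 to either side of the estimate for genes of 10 to 100 CPM and 2.25 for genes under 1 CPM. A missed threshold therefore leaves room for differences of this size and does not show that both agents left a gene at the same level. With TMM scaling the most counted genes leaned to one side. Of 1979 genes at 100 CPM or more, 657 (33.2%) were lower and 91 (4.6%) higher in TDN at an unadjusted p under 0.05, and the median log2 difference was -0.312. Without rapamycin replicate 2 the shares at 100 CPM or more were 12.5% lower and 2.08% higher, with a median of -0.137. Under 1 CPM the shares were 5.3% lower and 5.27% higher, with a median of 0.276. These medians depend on the scaling. With library size alone the median of all genes was 0.34 instead of 0.0409, a shift about as large as the lean. The lean at 100 CPM or more was not measured under that scaling.

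Estimated differences were large for many genes without passing the test. The log2 difference was above 1 for 2916 genes and below -1 for 3003, or for 1740 and 1726 without rapamycin replicate 2. It was above 2 for 479 and below -2 for 924. Genes with counts in 1 group and none in the other were few. In 13 genes all TDN libraries had 0 counts and every rapamycin library at least 3, and in 39 genes the reverse held. The 13 had at most 4.09 CPM in the rapamycin mean, and the 39 at most 0.971 CPM in the TDN mean.

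The 4 genes given by ID had the smallest unadjusted p in their direction among genes that reached 5 CPM or more in the higher mean and showed no overlap of TDN with rapamycin. Over all genes tested they ranked 6, 7, 14 and 56 by p. ENSRNOG00000015751 was at 0.955, 0.559 and 1.07 CPM in TDN replicates 1 to 3 and at 72.4, 35.4 and 4.39 CPM in rapamycin replicates 1 to 3. Each rapamycin library was above each TDN library, and replicate 3 was the lowest of the rapamycin libraries. The log2 difference, TDN minus rapamycin, was -5.44 (SE 1.04, 95% confidence interval -7.73 to -3.14, edgeR unadjusted p = 0.000303, adjusted p = 0.161). Sham tissue held 1.06, 0.964 and 0.569 CPM, the same range as TDN, and injured tissue 11.2, 3.97 and 1.44 CPM.

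ENSRNOG00000007390 was at 101, 106 and 98.1 CPM in TDN and at 438, 450 and 162 CPM in rapamycin. The rapamycin libraries were above all 9 others, and replicate 3 again was the lowest of them. The log2 difference was -1.78 (SE 0.337, 95% confidence interval -2.52 to -1.03, edgeR adjusted p = 0.161). Its sham and injury values lay together with TDN, at 89.9 to 120 and 101 to 134 CPM.

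ENSRNOG00000003749 was at 7.75, 8.45 and 5 CPM in TDN and at 0.945, 1.96 and 2.34 CPM in rapamycin. The log2 difference was 2.01 (SE 0.401, 95% confidence interval 1.13 to 2.9, edgeR adjusted p = 0.161). Here sham was the highest group, at 7.25 to 11.6 CPM, and overlapped with TDN, while injured tissue held 2.41 to 3.48 CPM. Every injury library was above every rapamycin library and below every TDN library.

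ENSRNOG00000043203 followed another order. It was at 18.7, 20.7 and 21.8 CPM in TDN and at 8.97, 12.3 and 8.58 CPM in rapamycin. The log2 difference was 1.04 (SE 0.229, 95% confidence interval 0.531 to 1.54, edgeR adjusted p = 0.161). Injured tissue held 12.5 to 15.1 CPM and sham 6.8 to 8.56 CPM, so that TDN was above all 9 other libraries and rapamycin lay between sham and injury. All 4 genes passed with DESeq2 (adjusted p = 1.1e-06, 0.000231, 0.000206 and 0.00113 in the order given here), with weighted voom (adjusted p = 0.00288, 0.00255, 0.00834 and 0.00317) and in edgeR without rapamycin replicate 3 (adjusted p = 0.0186, 0.00522, 0.0247 and 0.0292). The other alternatives left them above 0.05, up to 0.613 for the first 3 genes and 0.894 for ENSRNOG00000043203. The 4 genes were chosen by small p in these same libraries, so passing with other tools is no separate support for them.

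**Figure D3:**
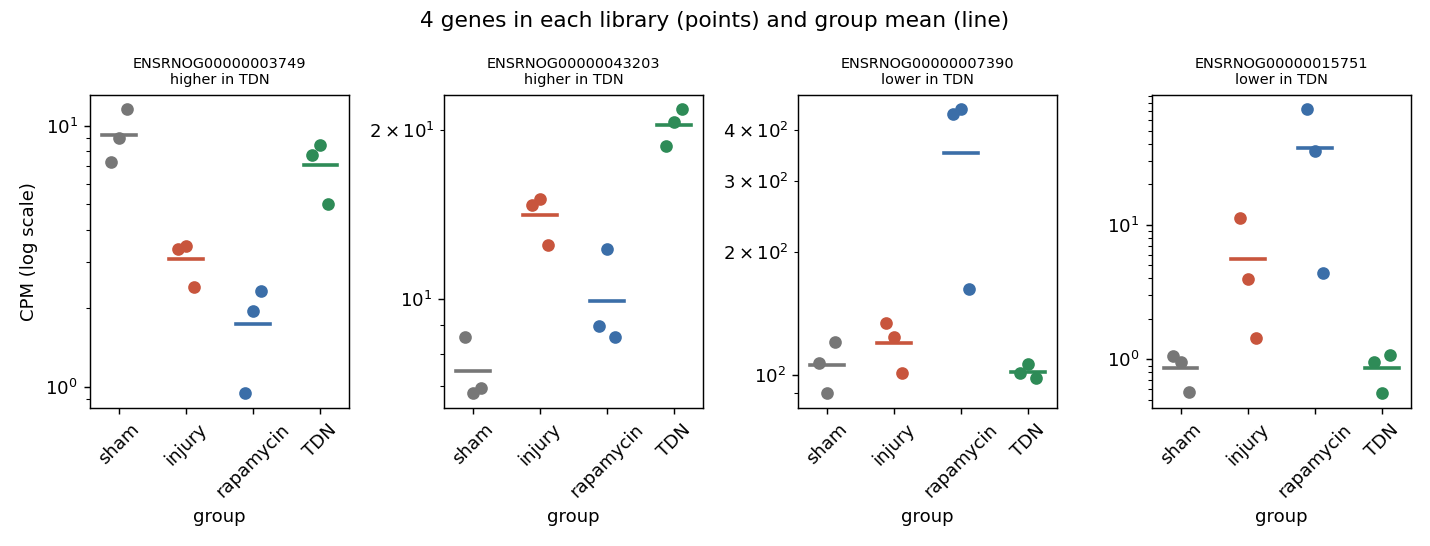
CPM on a log scale (vertical axis) of 4 genes in the sham, injury, rapamycin and TDN groups (horizontal axis), with 1 point per library and a line at the group mean. TDN sits at the sham level in the genes ENSRNOG00000003749, ENSRNOG00000007390 and ENSRNOG00000015751, and above all other libraries in ENSRNOG00000043203.

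The genes that separated TDN from rapamycin were then followed in the sham and injury libraries, which take no part in the order of the TDN and rapamycin libraries. Of the 3049 genes lower in TDN without overlap, 2917 (95.7%) had a higher mean in injury than in sham, beside 48.1% of all genes tested. Of the 3704 genes higher in TDN, 3427 (92.5%) had a lower mean in injury than in sham, beside 51.9% of all genes. The injury mean was over 2-fold above sham for 33.1% of the genes lower in TDN and for 12.6% of all genes. It was over 2-fold below sham for 50% of the genes higher in TDN and for 17.7% of all genes. The lists called by DESeq2 gave 98% and 94.5% for the first and second direction. DESeq2 was fitted to all 12 libraries, so sham and injury values took part in the choice of those lists. Without rapamycin replicate 2 the lists of genes without overlap gave 90.3% and 86.9%. Genes are not independent replicates, and no test was made of these shares.

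Library by library, the 3049 genes lower in TDN had a median log2 difference from the sham mean of 1.2, 0.891 and 0.135 in injury replicates 1 to 3. The same median was 1.05, 1.93 and 0.455 in rapamycin replicates 1 to 3 and 0.187, 0.109 and 0.135 in TDN replicates 1 to 3. Injury replicates 1 and 2 were thus near rapamycin replicate 1 and farther from sham than rapamycin replicate 3. Injury replicate 3 was within the range of the TDN libraries. The values of TDN and rapamycin describe the choice of these genes and are no finding. The 3704 genes higher in TDN mirrored this order. Their medians were -1.55, -1.14 and -0.237 in injury replicates 1 to 3, -1.35, -2.62 and -0.591 in rapamycin, and -0.225, -0.177 and -0.203 in TDN.

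**Figure D4:**
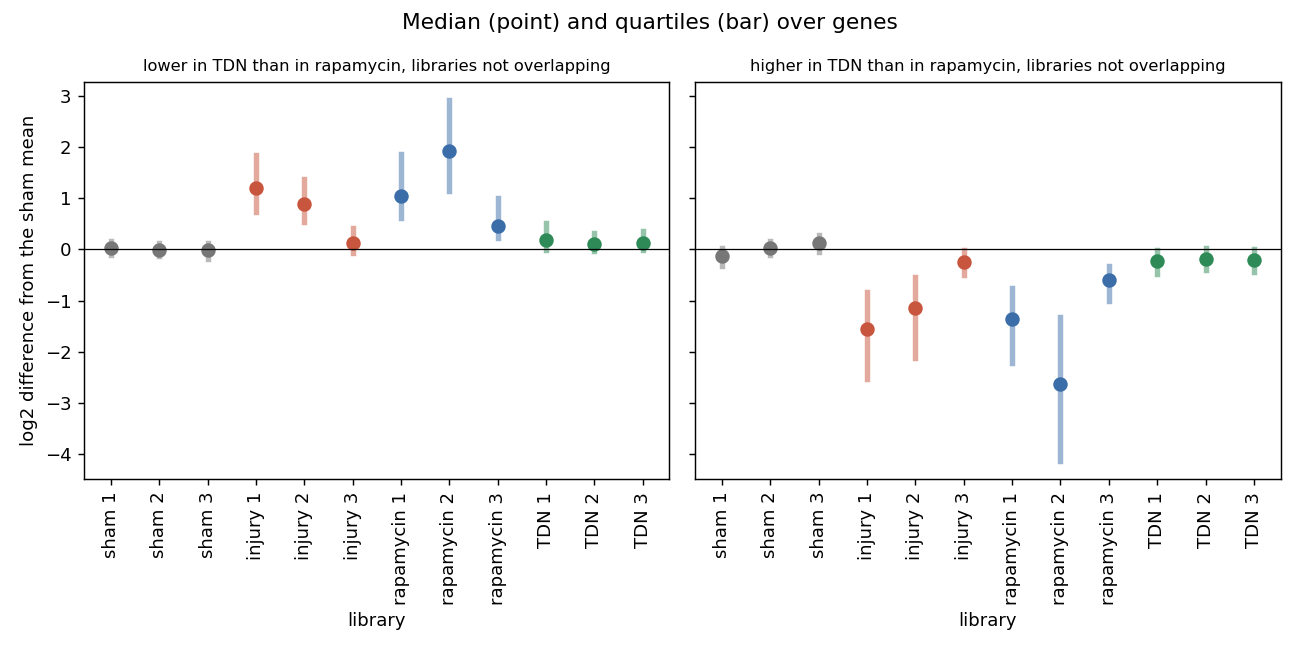
Log2 difference from the sham mean (vertical axis; a sham library is set against the mean of the other sham libraries) in each of the 12 libraries (horizontal axis), with the median as a point and the quartiles as a bar, over 3049 genes lower and 3704 genes higher in TDN than in rapamycin without overlap. Injury replicates 1 and 2 lie on the rapamycin side (1.2 and 0.891, and -1.55 and -1.14), and injury replicate 3 lies with TDN.

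Across all 17521 genes, the difference between TDN and rapamycin ran against the difference between injury and sham, with no library in both. Pearson's r was -0.651 and Spearman's rho -0.727, and 80.4% of genes had opposite signs. Without rapamycin replicate 2, r was -0.528. The correlation is across genes, whose values come from the same 12 libraries and share 1 scaling, and is given as a description. With single rapamycin libraries against the TDN mean, r was -0.57, -0.614 and -0.335 for replicates 1 to 3. With single TDN libraries it was -0.583 to -0.64. With single injury libraries against the sham mean, r was -0.73, -0.696 and -0.144 for replicates 1 to 3, so the relation was much weaker for injury replicate 3. For rapamycin replicate 3 beside injury replicate 3, r was 0.00832 and rho -0.238. The relation was present at every level, with r of -0.51 under 1 CPM, -0.646 from 1 to 10 CPM, -0.722 from 10 to 100 CPM and -0.675 at 100 CPM or more.

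**Figure D5:**
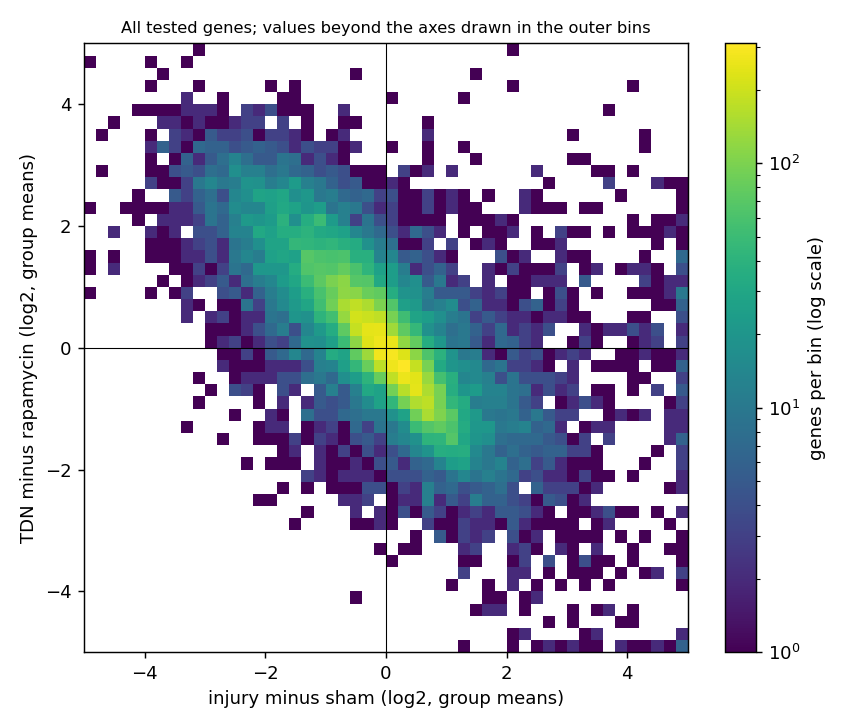
Injury minus sham (horizontal axis) against TDN minus rapamycin (vertical axis), both as differences of group means in log2 CPM, for 17521 genes counted in square bins (colour, log scale). Genes lie mainly in the upper left and lower right corners, where the signs are opposite (80.4% of genes), and r was -0.651.

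Scaling and detection moved with this order of libraries. The TMM factors were 0.912, 0.995 and 1.09 in injury replicates 1 to 3, 0.873, 0.66 and 1.07 in rapamycin replicates 1 to 3 and 1.02 to 1.12 in TDN. Detected genes numbered 18659, 18790 and 19058 in injury replicates 1 to 3. In injury as in rapamycin, replicate 3 had the highest factor and the most detected genes, and lay nearest to TDN. The part of RNA quality, of the share of each cell type and of sampling in the result was not tested, and in bulk tissue fewer cells of a type and less RNA per cell cannot be told apart.

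A small group of genes did not follow the injury axis. Of the 3704 genes higher in TDN without overlap, 277 (7.48%) had an injury mean above sham, as in ENSRNOG00000043203, beside 48.1% of all genes tested. Of the 3049 genes lower in TDN without overlap, 131 (4.3%) had an injury mean below sham, beside 51.9% of all genes. Without rapamycin replicate 2 these numbers were 547 of 4161 and 416 of 4288. Fewer libraries overlap less often, so those longer lists are not like for like. With all libraries the median log2 differences between TDN and rapamycin of the 277 and 131 genes were 1.02 and -0.864. In 187 of the 277 and 93 of the 131 the TDN mean lay farther from sham than the injury mean, in the same direction. Among genes that followed the injury axis, this held for 33 of 3427 higher and 57 of 2917 lower in TDN. All these genes were chosen by the order of TDN and rapamycin, which favours or disfavours such a position, so these counts describe the choice and are no finding. Over all 12 libraries, 54 genes (0.308%) had all TDN libraries above the 9 others and 64 (0.365%) had them below. The same counts for rapamycin were 125 (0.713%) and 92 (0.525%), and for injury 82 (0.468%) and 28 (0.16%). For sham they were 1837 (10.5%) and 1477 (8.43%), so sham was the group most often set apart from the other 3. TDN, rapamycin and injury all seldom were.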

How the data were processed

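Poly(A)-enriched RNA from rat urethral tissue was sequenced from both fragment ends, per the labels' protocols. The authors deposited whole-number counts per Ensembl gene ID without normalization, with Rnor 6.0 named as the genome build in the submitters' processing notes. No source used here names the aligner, the counter, the annotation release or the strandedness, so overlapping, antisense and near-identical genes may share reads. Of the 15 library columns, 3 matched no labelled sample and were not used. Of 32623 IDs, 0 were found among the 47357 genes of the reference table (assembly GRCr8), so no symbol or sequence is given, and the lists by symbol were not evaluated.

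Genes were tested with edgeR 4.0.16 in R 4.3.3 (quasi-likelihood test, TMM scaling, default filter by group, Benjamini-Hochberg adjustment), with 1 coefficient per group over all 12 libraries. The filter kept 17521 genes. The common biological coefficient of variation was 0.504 with 8 residual degrees of freedom. CPM used the TMM factors, and log2 CPM a prior count of 2. Standard errors are the absolute log2 difference over the square root of F. The scripts were tested on simulated data with known changes and the same spread in every group. That checks the code, and not how the test behaves under the unequal spread of these groups. Alternatives used DESeq2 1.42.0, limma 3.58.1, other scalings and filters, fewer groups, a minimum log2 difference of 1, the replicate number as a block, and fits that each lacked 1 library. The rule for single genes took those with at least 5 CPM in the higher group and no overlap, ranked by adjusted and then by unadjusted p, and without symbols the first 2 in each direction. The comparison and the lists were chosen with earlier results of these data known. Depth limits precision most for genes under 1 CPM, where 3 counts correspond to 0.0541 to 0.102 CPM in these 6 libraries.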

Additional observations from a re-analysis of the deposited data

How the results depend on the processing

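The count of genes passing the adjusted threshold was 0 under 21 of 24 alternatives. Of 17521 genes tested, DESeq2 called 1738 (163 higher and 1575 lower in TDN), and limma voom with sample quality weights called 5993 (2941 higher and 3052 lower). Leaving out 1 library gave 0 to 4788 genes (0 to 1893 higher, 0 to 2895 lower). Every call came from the fit without rapamycin replicate 3, which tested 17851 genes. The 3 lists had 1487 genes in common. DESeq2 gave no adjusted p for 1948 genes. The causes of these differences were not tested.

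At an unadjusted p under 0.05, the genes higher in TDN ranged from 161 (minimum log2 difference of 1) to 4122 (weighted voom), and the genes lower from 1093 (the same minimum) to 4181 (edgeR without rapamycin replicate 3). Lower genes made up 74.1% of them as reported, 55.8% with scaling by library size alone, 42.9% in voom and 87.2% with the minimum difference. Genes without overlap numbered 3676 to 6014 higher and 3049 to 4988 lower when 1 library was left out, both highest without rapamycin replicate 3. Together they were 38 to 61.6% of the genes tested, and fewer TDN or rapamycin libraries overlap less often. Under other scalings, filters and groups they numbered 3398 to 4269 and 2075 to 3200 (together 30.8 to 41.1%). The r between TDN minus rapamycin and injury minus sham lay between -0.735 (without injury replicate 3) and -0.523 (without injury replicate 1). Measures of spread, fold size, level and genes off the injury axis without rapamycin replicate 2 were added after seeing the data. The 4 single genes kept their direction under all alternatives, which their choice by lack of overlap made all but certain.

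Both groups carry the replicate numbers 1 to 3 in the titles, with no word on pairing. TDN and rapamycin libraries of the same number had deviations from their group means that correlated at 0.0429, 0.00202 and -0.000854, and TDN replicate 2 correlated best with rapamycin replicate 3 (0.0815). With the replicate number as a block, 0 genes were called (before adjustment, p was under 0.05 for 2465 higher and 2770 lower genes).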
